A study of Mus musculus with 35 samples.

Results

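The cytosolic heat shock response and the unfolded protein response of the endoplasmic reticulum (ER) were followed through 42 genes in mouse retina. The members were chosen by name and looked up in 8 tables, each of which compares a pair of groups over 25655 genes. A row was found for 41 of the 42 members: 18 act in the cytosol, 3 in mitochondria, 16 are ER chaperones or folding factors, and 4 (Xbp1, Atf4, Trib3 and Chac1) are signalling genes of the unfolded protein and integrated stress responses. Ddit3, which encodes the transcription factor CHOP, was not analysed here.

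The RNA came from whole retinas of mice labelled wild type, in 35 samples and 7 groups, and was sequenced as strand-specific poly(A) mRNA. The non-diabetic groups were ND (6 samples, no treatment named) and ND repopulated (5 samples, 2 weeks of depletion of microglia and then 2 weeks of recovery). The diabetic groups were D6 (5 samples, 6 weeks of diabetes), D8 (5 samples, 8 weeks, with PBS), D8 depleted (4 samples, 8 weeks, with 2 weeks of depletion), D10 (5 samples, 10 weeks, with PBS) and D10 repopulated (5 samples, 10 weeks, with 2 weeks of depletion and 2 weeks of recovery). The labels call the depleting treatment DTx, whereas the study's design text names PLX-5622, an inhibitor of the receptor that microglia need to survive, so the treatment is called depletion here. The labels do not say how diabetes was induced, how old the mice were or whether each sample was a separate animal, so the p-values measure the spread between these samples, which may be technical.

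Heat shock proteins bind unfolded proteins and keep them from aggregating. In the cytosol the transcription factor HSF1 switches on many of their genes through heat shock elements, repeats of the unit GAA in alternating orientation. In the ER, misfolded proteins draw the chaperone BiP (Hspa5) away from the sensors IRE1, PERK and ATF6. These then raise folding capacity through XBP1 and ATF6, acting on ER stress elements. PERK also slows translation in general, while more ATF4 is translated. Photoreceptors make large amounts of membrane protein through the ER, and this response is known from retinal degeneration.

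Matches in the members' promoters to the elements of both responses are printed here for reference beside the values. The members were chosen by name as genes of these responses, so such matches are no independent result. RefSeq promoters of build GRCm38.p6, from 250 bases before to 50 bases after the start site, were found for 34 of the 42 members. The ER stress element was searched on both strands as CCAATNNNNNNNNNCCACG, which is CCAAT, 9 bases and CCACG. It lay in 7 of 13 promoters of ER chaperones, in 0 of 14 cytosolic, 0 of 2 mitochondrial and 0 of 5 signalling genes, and in 0.137% of 27025 promoters in all. Capitals mark the fixed letters of that element, in either orientation, in Hspa5 (chr2:34772005-34772063, plus strand), Hsp90b1 (chr10:86705513-86705676, minus strand), Dnajc3 (chr14:118937807-118937865, plus strand), Pdia6 (chr12:17266471-17266529, plus strand), Calr (chr8:84847055-84847113, minus strand), Canx (chr11:50325780-50325838, minus strand) and Creld2 (chr15:88819500-88819558, plus strand):
Hspa5: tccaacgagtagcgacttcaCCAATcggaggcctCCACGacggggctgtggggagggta
Hsp90b1: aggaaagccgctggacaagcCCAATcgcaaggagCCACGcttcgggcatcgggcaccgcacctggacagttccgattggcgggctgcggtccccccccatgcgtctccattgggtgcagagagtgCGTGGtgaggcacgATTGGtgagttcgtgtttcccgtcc
Dnajc3: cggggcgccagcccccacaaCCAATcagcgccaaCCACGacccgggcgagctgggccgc
Pdia6: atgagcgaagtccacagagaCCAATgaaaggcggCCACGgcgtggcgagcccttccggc
Calr: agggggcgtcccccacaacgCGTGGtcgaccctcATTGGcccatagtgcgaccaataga
Canx: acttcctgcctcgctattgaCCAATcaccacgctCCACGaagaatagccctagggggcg
Creld2: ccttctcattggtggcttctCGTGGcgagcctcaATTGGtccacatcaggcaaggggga

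The heat shock element was searched on both strands as 2 units in either order, GAANNTTC or TTCNNGAA, with either match counted as the shorter form. It was also searched as 3 units, GAANNTTCNNGAA, which contains the shorter form. The shorter form lay in 8 of 14 cytosolic promoters (Hspa1a, Hspa1b, Hsph1, Hspb1, Hspb8, Dnaja1, Bag3 and Chordc1), in both mitochondrial promoters, in 0 of the 18 ER and signalling promoters, and in 17.0% of all promoters. The form of 3 units lay in Hsph1, Chordc1, Hspd1 and Hspe1 and in 0.662% of all promoters. The windows of 4 cytosolic members are shown with the units in capitals: Hspa1b (chr17:34959315-34959362, minus strand), Hspb1 (chr5:135887782-135887849, plus strand), Chordc1 (chr9:18292260-18292288, plus strand) and Hsph1 (chr5:149636287-149636303, minus strand):
Hspa1b: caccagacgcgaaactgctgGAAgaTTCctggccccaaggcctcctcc
Hspb1: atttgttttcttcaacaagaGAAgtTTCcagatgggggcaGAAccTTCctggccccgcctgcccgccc
Chordc1: ccgGAAcgTTCggGAAaaTTCctGAAgca
Hsph1: agaTTCtgGAAagTTCt

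An element of the integrated stress response, TGATGNAA on either strand, lay in the promoters of Herpud1, Trib3 and Chac1 and in 4.51% of all promoters. A second ER element, ATTGGNCCACG, whose end it shares with the first, lay in Dnajb11 and Herpud1 and in 0.0444% of all promoters. Such matches describe letters in these windows and show no binding.

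The values behind the results are those of the authors' deposited tables: the mean of the group with the larger mean, a log2 fold change, its p and a false discovery rate adjusted p, under 0.05 for a call. Values per library were not analysed here, so depth is unknown, and the error given after ± is the standard error that the deposited p implies for the deposited log2 fold change. The unit of the group means is not stated, so they are compared within a gene only. The group that a mean belongs to was inferred from values repeated between tables and from the sign of the log2 fold change. D8 and D10 carry sample numbers 2974 to 2983, and the other groups 3006 to 3035. A difference between these 2 sets therefore cannot be told apart from the set or from PBS. By the authors' deposited table, 14 of 15 microglial markers were lower in D8 depleted than in D8, median log2 -3.52. Lens, blood and immediate early genes also differed between groups. The median log2 of 7 blood genes against ND was -1.97 in D6 (1 called lower), -3.48 in D8 (4) and -3.21 in D10 (5). It was -1.35 in D8 depleted, 0.40 in D10 repopulated and -1.14 in ND repopulated, with 0 called. Of 14 markers of retinal cells, 4 fell and 2 rose in D6, 0 and 1 in D8, 2 and 0 in D10, 6 and 0 in D8 depleted and 0 and 1 in D10 repopulated, by the authors' deposited tables. Of all genes tested in those groups, in the same order, 9.31%, 0.583%, 1.41%, 13.0% and 4.19% were called lower. The shares called higher were 14.1%, 2.33%, 5.59%, 15.5% and 7.49%. The part of the lens, blood, immediate early and retinal genes in the members' values was not tested. In such bulk RNA, fewer cells of a type and less RNA per cell cannot be told apart.

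Chaperone genes of both compartments were lower in D6, D8 depleted and D10 repopulated than in ND, and in D8 and D10 the members called lower were cytosolic; the tests of D8 and D10 against D6 follow further on. By the authors' deposited table, 23 of 41 members fell and 2 rose in D6, where 9.31% of all genes tested were called lower and 14.1% higher. In D8, 4 fell and 1 rose, against 0.583% and 2.33% of all genes, by the same authors' deposited test. In D10, 6 fell and 2 rose, against 1.41% and 5.59%. In D8 depleted, 25 fell and 2 rose, against 13.0% and 15.5%, and in D10 repopulated 21 fell and 2 rose, against 4.19% and 7.49%. In ND repopulated 0 fell and 1 rose, against 0.0714% and 0.0844%, with 1 member under an unadjusted p of 0.05. The median log2 fold change of the 41 members in the authors' deposited tables was -0.42 in D6, -0.22 in D8, -0.10 in D10, -0.53 in D8 depleted, -0.37 in D10 repopulated and 0.08 in ND repopulated, while the median of all genes tested was within 0.04 of 0. These 6 comparisons share the ND samples, so they are not independent of one another. The map of log2 differences by gene and comparison shows every member.

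**Figure D1:**
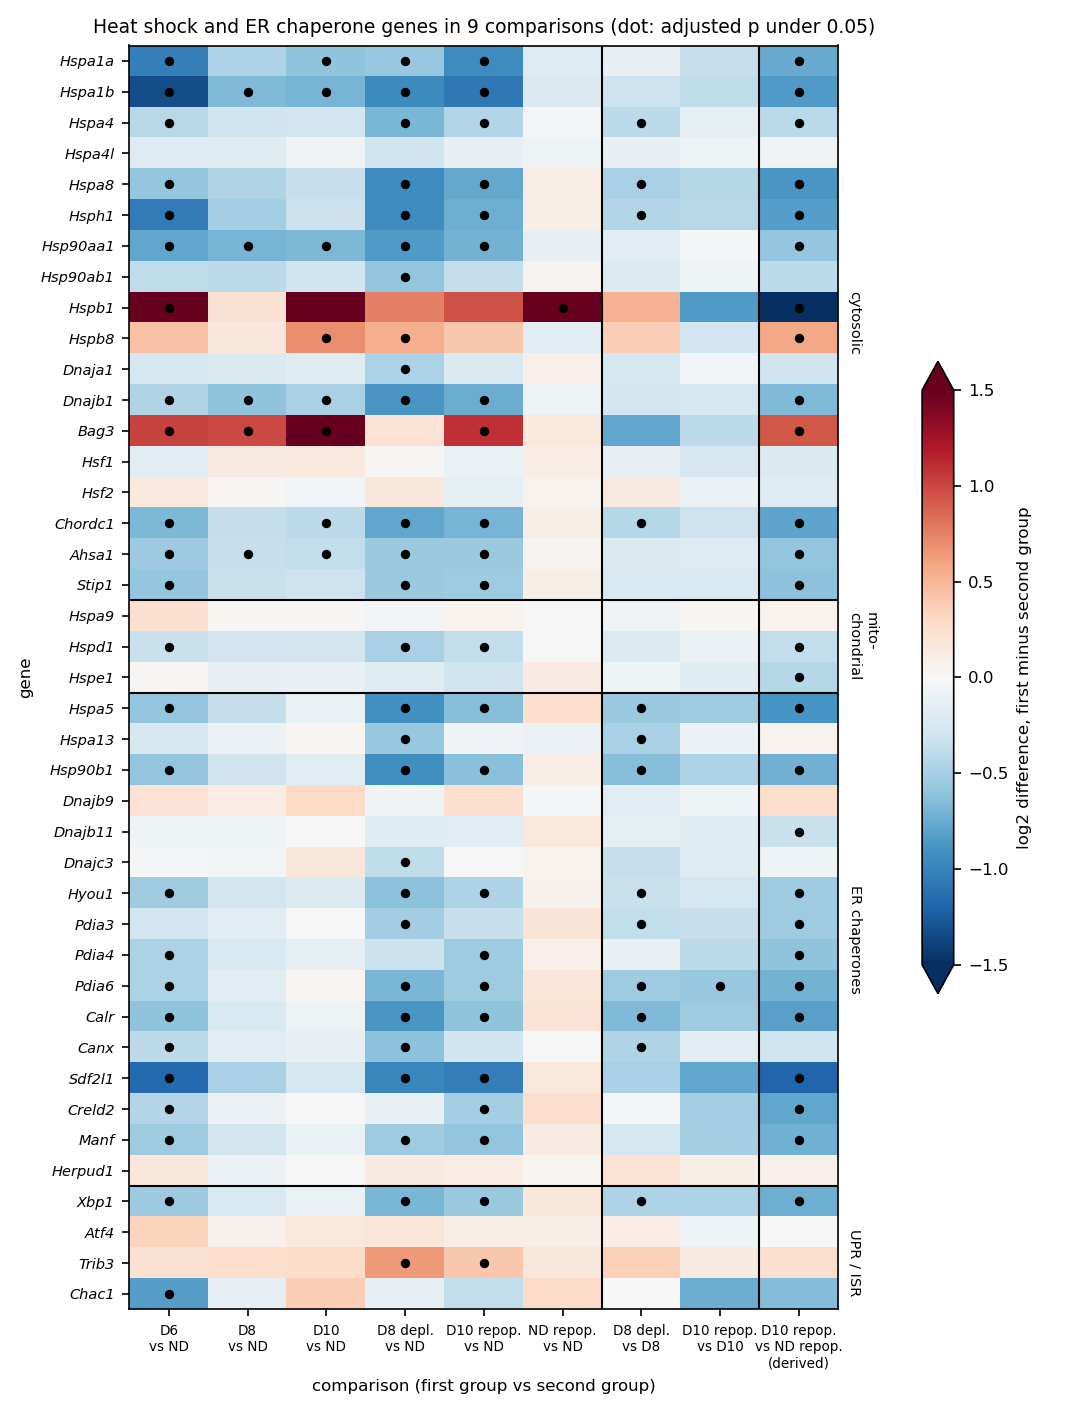
Log2 difference (first minus second group; colour, capped at 1.5 in either direction) of each of 41 members (vertical axis) in 8 deposited comparisons and 1 derived from them (horizontal axis); dots mark an adjusted p under 0.05. Blue fills the columns of D6, D8 depleted, D10 repopulated and the derived comparison, and the ER block is pale in D8, D10 and ND repopulated.

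Hspa1b, an inducible HSP70, had the largest fall of the cytosolic members in D6, D10, D8 depleted and D10 repopulated. The gene (GRCm39 chr17:35175412-35178214, minus strand) had a group mean of 34.9 in ND, 22.6 in D8 and 21.7 in D10, as the authors' deposited tables give them. Its log2 fold change against ND in the authors' deposited tables was -1.33 ± 0.20 in D6 (2.52-fold lower, adjusted p = 6.27e-09), -0.66 ± 0.20 in D8, -0.70 ± 0.20 in D10, -0.96 ± 0.21 in D8 depleted and -1.08 ± 0.20 in D10 repopulated. It fell in all 5 diabetic groups, and in ND repopulated it was at -0.22 ± 0.20 and was not called. Immediate early genes, the fast transcriptional answer of cells to stimuli, had medians over 18 genes of -0.39 in D6, -0.54 in D8, -0.14 in D10, -0.90 in D8 depleted, -0.47 in D10 repopulated and -0.75 in ND repopulated in the authors' deposited tables; their part in the Hspa1b values was not tested. Hspa1a, its neighbour on chromosome 17, fell in 4 of the 5 diabetic groups, by the authors' deposited tables, with log2 values of -0.57 to -1.02, and was at -0.46 in D8. These genes are near copies: 47.1% of the 100-base stretches of the Hspa1a transcript are also in that of Hspa1b, and how the authors' counting divided such reads is not given, so both are uncertain as single genes.

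The constitutive HSP70 and the HSP110 exchange factors followed in 3 of the 5 diabetic groups. Hspa8, the main HSP70 of unstressed cells, had group means of 476 in ND, 508 in ND repopulated, 354 in D8 and 378 in D10, as deposited by the authors. Its log2 fold change in the authors' deposited tables was -0.58 ± 0.18 in D6, -0.94 ± 0.19 in D8 depleted and -0.77 ± 0.18 in D10 repopulated, all called, and -0.46 in D8 and -0.35 in D10, not called. Hsph1, which recharges HSP70 with nucleotide, fell in the same groups by the authors' deposited tables, with log2 values of -1.05 ± 0.18, -0.95 ± 0.19 and -0.74 ± 0.18. Hspa4, of the same family, fell there too, with log2 values of -0.42 to -0.68 in the authors' deposited tables, while Hspa4l was called in none of the 8 comparisons. Dnajb1, the J-protein that hands clients to HSP70, fell in all 5 diabetic groups, with deposited log2 values of -0.45 ± 0.15 in D6, -0.61 in D8, -0.49 in D10, -0.88 ± 0.16 in D8 depleted and -0.75 in D10 repopulated in the authors' deposited tables. Dnaja1, another J-protein, fell only in D8 depleted among the comparisons with ND, by 0.48 on the log2 scale in the authors' deposited table; its differences between groups were not tested beyond the derived comparisons given further on.

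The inducible HSP90 and several of its partners fell in the diabetic groups. Hsp90aa1 (GRCm39 chr12:110657039-110669162, minus strand), the stress-inducible cytosolic HSP90, had a group mean of 470 in ND and 297 in both D8 and D10, per the authors' deposited tables. Its deposited log2 fold change was nearly the same in each diabetic group of the authors' deposited tables: -0.78 ± 0.16 in D6 (adjusted p = 2.10e-05), -0.69 ± 0.16 in D8, -0.68 ± 0.16 in D10, -0.85 ± 0.17 in D8 depleted and -0.71 ± 0.16 in D10 repopulated. In ND repopulated it was at -0.12 ± 0.16. Hsp90ab1, the constitutive form, was called only in D8 depleted, at -0.59 ± 0.17 in the authors' deposited table. Ahsa1, which stimulates the HSP90 ATPase, fell in all 5 diabetic groups, with log2 values between -0.35 and -0.56 in the authors' deposited tables. Stip1, which joins HSP70 to HSP90, fell in D6, D8 depleted and D10 repopulated, with log2 values of -0.53 to -0.58 in the authors' deposited tables, and the HSP90 partner Chordc1 fell in those groups and in D10, with log2 values of -0.39 to -0.78. The Chordc1 call in D10 was lost when the median of all genes was subtracted (adjusted p = 0.0505 against 0.0489 in the authors' deposited table). Of the 18 cytosolic members, 10 fell and 2 rose in D6, 4 and 1 in D8, 6 and 2 in D10, 12 and 1 in D8 depleted, and 10 and 1 in D10 repopulated, by the authors' deposited tables. Over all genes tested, 9.31%, 0.583%, 1.41%, 13.0% and 4.19% were called lower in these groups, in this order. The shares called higher were 14.1%, 2.33%, 5.59%, 15.5% and 7.49%. Hsf1 and Hsf2, the transcription factors of the response, were called in none of the 8 comparisons, with log2 values from -0.25 to 0.17 in the authors' deposited tables.

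Bag3 and the small heat shock gene Hspb8, which work together in clearing aggregated protein, went the other way in some groups. They were called higher against ND in 4 and 2 of the 5 diabetic groups. Hspb1, another small heat shock gene, was called higher in 1 of the 5 and in ND repopulated. Bag3 (GRCm39 chr7:128125340-128148705, plus strand) had a group mean of 2.67 in ND repopulated, 2.88 in D8 depleted, 4.73 in D6, 4.87 in D8, 5.20 in D10 repopulated and 6.83 in D10, as given in the authors' deposited tables. It rose against ND in 4 of the 5 diabetic groups of the authors' deposited tables, by log2 1.01 ± 0.30 in D6, 1.00 ± 0.30 in D8, 1.49 ± 0.30 in D10 and 1.10 ± 0.30 in D10 repopulated, and was at 0.22 ± 0.32 in D8 depleted, where microglia were removed. Set against D8 directly, the depleted group had a Bag3 log2 value of -0.78 ± 0.36 in the authors' deposited table, which was not called (adjusted p = 0.147). Hspb8, the partner of BAG3, rose in D10 (0.69 ± 0.19) and D8 depleted (0.55 ± 0.20), by the authors' deposited tables, and was at 0.17 to 0.44 in the other diabetic groups.

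Hspb1 (GRCm39 chr5:135916773-135918417, plus strand), the small heat shock protein HSP27, had the widest range of any member. The authors' deposited tables give its group mean as 8.61 in D8, 12.6 in D8 depleted, 14.2 in D10 repopulated, 25.6 in D10, 53.4 in ND repopulated and 81.1 in D6, and ND lay below each of these. Against ND it rose in D6, by log2 3.55 ± 0.64 (11.7-fold, adjusted p = 1.84e-06), and in ND repopulated, by log2 2.92 ± 0.64 (adjusted p = 0.00445), in the authors' deposited tables. It was at 1.80 ± 0.64 in D10 (adjusted p = 0.0617), 0.96 in D10 repopulated, 0.75 in D8 depleted and 0.23 in D8, with no call, in the authors' deposited tables. Hspb1 is also made in the lens, a tissue that can come away with the retina, so lens markers are set beside it. Over 19 lens markers, the median log2 fold change against ND in the authors' deposited tables was 1.89 in D6 (7 called higher), 1.48 in ND repopulated (2 called higher), -0.34 in D10, -1.15 in D10 repopulated, -4.83 in D8 (11 called lower) and -7.08 in D8 depleted (16 called lower). Cryaa, a lens crystallin, had group means of 2084 in D6, 1803 in ND repopulated, 1484 in ND, 743 in D10 repopulated and 20.4 in D8, in the authors' deposited tables. D6 and ND repopulated were highest both in Hspb1 and in the lens median. In D8, D8 depleted, D10 and D10 repopulated Hspb1 was not below ND although the lens median was. The part of lens RNA in the Hspb1 values was not tested.

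**Figure D2:**
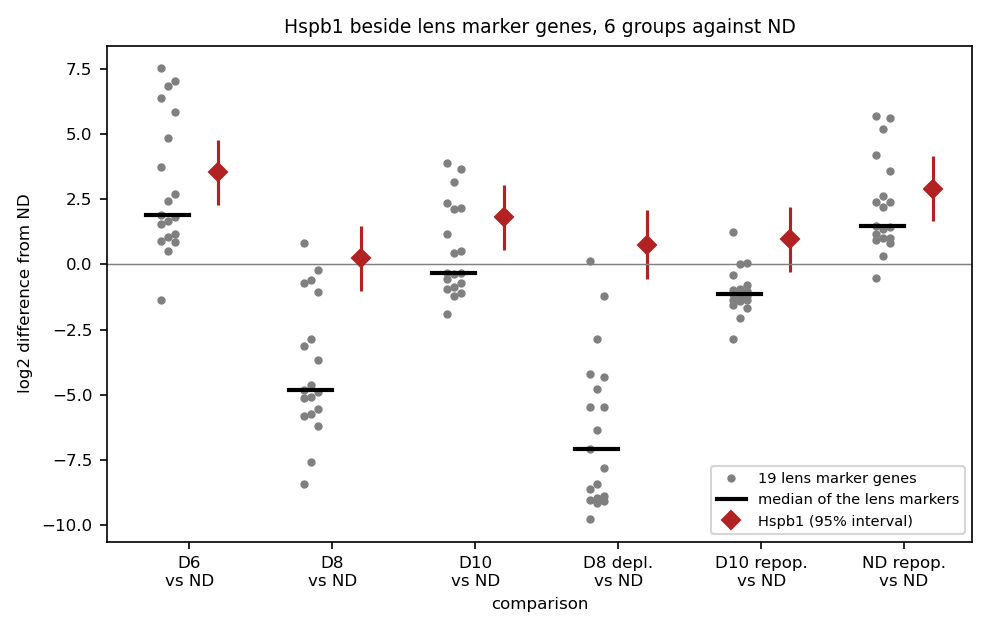
Log2 difference from ND (vertical axis) of Hspb1 (diamonds, with 95% intervals from the implied standard error) and of 19 lens marker genes (grey points, with their median as a black bar) in 6 groups (horizontal axis). Hspb1 and the lens median are both highest in D6 and ND repopulated, while in D8 and D8 depleted the lens median falls to -4.83 and -7.08 and Hspb1 stays at 0.23 and 0.75.

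Of the 3 mitochondrial members, 1 was called in the deposited comparisons. Hspd1, the mitochondrial chaperonin HSP60, fell by 0.33 on the log2 scale in D6, by 0.49 in D8 depleted and by 0.37 in D10 repopulated, in the authors' deposited tables. Its lid Hspe1 and the mitochondrial HSP70 Hspa9 were called in none of the 8 comparisons, with Hspa9 between -0.06 and 0.24 in the authors' deposited tables. In the derived comparison of both repopulated groups, given further on, Hspd1 (-0.37 ± 0.11) and Hspe1 (-0.42 ± 0.12) were called lower.

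Among ER chaperones, the general folding machines fell together in D6, D8 depleted and D10 repopulated. Hspa5 (GRCm39 chr2:34661982-34667559, plus strand), the ER HSP70 BiP, had group means of 68.6 in ND, 81.1 in ND repopulated, 54.7 in D8 and 64.4 in D10, per the authors' deposited tables. Its log2 fold change against ND was -0.58 ± 0.17 in D6 (adjusted p = 0.0055), -0.90 ± 0.18 in D8 depleted (adjusted p = 1.47e-05) and -0.64 ± 0.17 in D10 repopulated (adjusted p = 0.00341) in the authors' deposited tables. It was at -0.36 in D8, -0.10 in D10 and 0.25 in ND repopulated, with no call. Hsp90b1, the ER HSP90 GRP94, and Hyou1, which recharges BiP, fell in the same groups of the authors' deposited tables, Hsp90b1 at -0.59, -0.92 and -0.63 and Hyou1 at -0.54, -0.61 and -0.46. Calr, the lectin chaperone calreticulin, fell, with log2 values of -0.60 ± 0.19, -0.88 ± 0.20 and -0.60 ± 0.19 in the authors' deposited tables. Its membrane-bound relative Canx fell in D6 (-0.39) and D8 depleted (-0.62) and was at -0.29 in D10 repopulated, per the authors' deposited tables.

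Of the disulfide isomerases, Pdia6 fell in the same 3 groups, with log2 values of -0.48, -0.69 and -0.53 in the authors' deposited tables. Pdia4 fell in D6 (-0.47) and D10 repopulated (-0.54), and Pdia3, which works with the lectin chaperones, only in D8 depleted (-0.52), by calls of the authors' deposited tables. Sdf2l1 (GRCm39 chr16:16948002-16950247, minus strand), a BiP cofactor, had the largest fall of the ER members in each of those groups: group means were 8.58 in ND, 9.54 in ND repopulated, 6.23 in D8 and 7.18 in D10, and log2 fold changes were -1.17 ± 0.21 in D6 (2.24-fold lower, adjusted p = 1.90e-06), -0.97 ± 0.22 in D8 depleted and -1.04 ± 0.21 in D10 repopulated, in the authors' deposited tables. Manf, a secreted ER stress protein that protects photoreceptors, fell, with log2 values of -0.53 to -0.59 in those groups of the authors' deposited tables. Creld2, another secreted ER stress protein, fell in D6 (-0.44) and D10 repopulated (-0.51) and was at -0.11 in D8 depleted, in the authors' deposited tables.

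The remaining ER members were called in 1 comparison with ND or in none. Hspa13 and Dnajc3, the PERK inhibitor p58IPK, fell only in D8 depleted among the comparisons with ND, with log2 values of -0.57 ± 0.12 and -0.38 ± 0.10 in the authors' deposited table. Dnajb9, Dnajb11 and Herpud1, 2 BiP cofactors and a component of ER-associated degradation, were called in none of the 8 comparisons, with log2 values from -0.18 to 0.30 in the authors' deposited tables. Of the 16 ER chaperones, 10 fell in D6, 11 in D8 depleted and 9 in D10 repopulated, and 0 in D8, D10 and ND repopulated (4, 1 and 0 members under an unadjusted p of 0.05, against 11.3%, 16.1% and 2.48% of all genes), by the authors' deposited test. Among all genes tested, 9.31% were called lower in D6, 13.0% in D8 depleted and 4.19% in D10 repopulated. The median log2 fold change of the ER chaperones in these 3 groups was -0.46, -0.55 and -0.49 in the authors' deposited tables. It was -0.17, -0.04 and 0.11 in D8, D10 and ND repopulated. Among the 13 with a promoter in the RefSeq table, the 7 with the ER stress element printed above had a median of -0.48 in D6 and 6 falls, and the 6 without it had -0.18 and 2 falls, per the authors' deposited table. In D8 depleted these medians were -0.69 (6 falls) and -0.26 (2 falls), and in D10 repopulated -0.53 (5 falls) and -0.26 (2 falls), by the authors' deposited tables. Dnajc3 in D6 and D10 repopulated, Canx in D10 repopulated and Creld2 in D8 depleted carried the element without a fall. Conversely, Sdf2l1 fell in D6, D8 depleted and D10 repopulated without the element, as did Pdia4 in D6 and D10 repopulated and Pdia3 in D8 depleted. Dnajb11 and Herpud1, counted among the 6 without this element, carry the second ER element and were not called. Hyou1, Manf and Hspa13 had no promoter in the RefSeq table and are outside this split. The part of the elements in the falls was not tested.

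**Figure D3:**
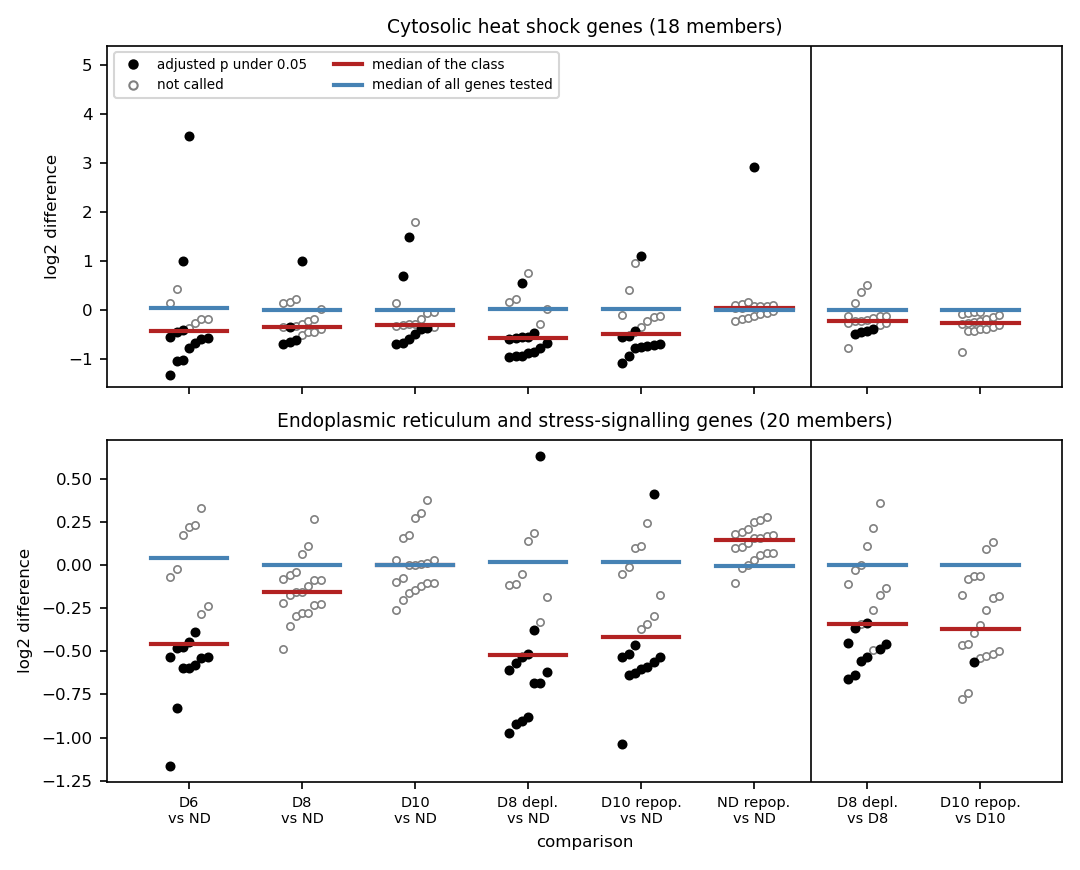
Log2 difference (vertical axes) of 18 cytosolic members (upper panel) and 20 ER and signalling members (lower panel) in 8 deposited comparisons (horizontal axis); filled points passed an adjusted p of 0.05, red bars are medians of the members and blue bars medians of all genes tested. The ER median is -0.46 in D6 and -0.52 in D8 depleted but 0.00 in D10, while the cytosolic median stays below the blue bar in each diabetic group.

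The signalling genes did not move as 1 group. Xbp1 (GRCm39 chr11:5470659-5475893, plus strand), the transcription factor that IRE1 activates by splicing, had group means of 28.7 in ND, 32.3 in ND repopulated, 24.9 in D8 and 26.9 in D10, in the authors' deposited tables. It fell with the ER chaperones, with log2 values of -0.54 ± 0.13 in D6, -0.68 ± 0.14 in D8 depleted and -0.56 ± 0.13 in D10 repopulated, and was at -0.23 in D8, -0.11 in D10 and 0.17 in ND repopulated, per the authors' deposited tables. These tables give 1 value per gene, so the spliced form was not analysed here. Atf4, the effector of the integrated stress response, which is controlled mainly by translation, was called in none of the comparisons and lay between -0.06 and 0.33 in the authors' deposited tables. Trib3, an ATF4 target, rose in D8 depleted (0.63 ± 0.16) and D10 repopulated (0.41 ± 0.15; adjusted p = 0.0552 with the median of all genes subtracted), and Chac1, an ATF4 target that degrades glutathione, fell in D6 (-0.83 ± 0.31), by the authors' deposited tables. Both carry the stress response element in their promoters. The Chac1 window, chr2:119351029-119351076 on the plus strand, is shown with the element in capitals as the reverse complement:
Chac1: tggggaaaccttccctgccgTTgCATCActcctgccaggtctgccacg

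In the 8-week diabetic retina after depletion of microglia, ER chaperones and some cytosolic members were lower than with PBS. In D8 depleted against D8, 8 of 16 ER chaperones, Xbp1 and 4 of 18 cytosolic members fell and 0 rose, 13 in all, where 4.90% of all genes tested were lower and 5.85% higher by the authors' deposited table. Calr fell, with a log2 value of -0.66 ± 0.14 (adjusted p = 0.000278), Hsp90b1 at -0.64 ± 0.14, Hspa5 at -0.56 ± 0.14 (adjusted p = 0.0040) and Pdia6 at -0.54 ± 0.13 on the log2 scale of the authors' deposited table. Hspa13, Canx, Pdia3 and Hyou1 fell, with log2 values of -0.34 to -0.49, and Xbp1 at -0.46 ± 0.14, in the authors' deposited table; with the median of all genes subtracted Hyou1 was no longer called (adjusted p = 0.0504). The cytosolic falls were Hspa8 (-0.49 ± 0.13), Hsph1 (-0.45), Chordc1 (-0.43) and Hspa4 (-0.39), all in the authors' deposited table. Hspa1b was at -0.31, Hsp90aa1 at -0.17 and Hspb1 at 0.52, with no call, in the authors' deposited table. Lens markers fell in 12 of the 16 tested in this comparison and 4 of 5 blood genes tested rose. Of 14 markers of retinal cells, 5 fell, with a median of -0.25, and 4 of 9 markers of the pigment epithelium rose, with a median of 1.06, in the authors' deposited table. The part of these marker genes in the chaperone values was not tested. D8 and D8 depleted lie on either side of PBS and of the sample number sets.

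Repopulation gave 1 call in the diabetic retina. In D10 repopulated against D10, Pdia6 fell, with a log2 value of -0.56 ± 0.14 (adjusted p = 0.0129), where 0.267% of all genes were lower and 0.178% higher in the authors' deposited table. Xbp1 was at -0.46 ± 0.13 (adjusted p = 0.0538), Hspa5 at -0.54 ± 0.18 (adjusted p = 0.186), Sdf2l1 at -0.78 ± 0.24, Hspb1 at -0.85 ± 0.38, Hspa1b at -0.38 and Hsp90aa1 at -0.03 in the authors' deposited table. At an unadjusted p of 0.05, 19 of 41 members passed, 11 of them ER chaperones, against 7.27% of all genes tested, and the median of the ER chaperones was -0.37 against 0.00 over all genes tested, by the authors' deposited table. In ND repopulated against ND, Hspb1 rose and no other member was called, and the medians of cytosolic and ER chaperones were 0.05 and 0.11 in the authors' deposited table. Lens markers had a median of -1.14 with none of 18 tested called, and 4 of 6 blood genes tested rose, in D10 repopulated against D10 by the authors' deposited table. Of 15 microglial markers 5 fell in the same authors' deposited table, with a median of -0.94, and of 9 markers of the pigment epithelium 3 rose and 1 fell, with a median of -0.13. The part of these marker genes was not tested. D10 and D10 repopulated also lie on either side of PBS and of the sample number sets.

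The test of the difference between both repopulation effects, on tables that share no sample, called Hspb1 alone with a normal quantile behind the errors. With errors implied through a t quantile, 7 members were called (Hspb1, Hspa5, Pdia6, Sdf2l1, Creld2, Manf and Xbp1). Those errors are smaller and p was still taken from the normal law. That setting is therefore looser and adds no support for the further members. Computed from the authors' deposited values, the diabetic minus the non-diabetic log2 effect was -3.77 ± 0.74 for Hspb1 (95% interval -5.22 to -2.32, adjusted p = 0.00080), where 0.0876% of all genes were called lower and 0.0657% higher. Unadjusted, 17 of 41 members passed 0.05, all with a negative difference and 10 of them ER chaperones, where 3.70% of all genes passed and 2.04% passed with a negative difference. The members' median difference was -0.31 against 0.00 over all genes. From the authors' deposited values, Pdia6 had a difference of -0.74 ± 0.19 (adjusted p = 0.0722), Creld2 -0.78 ± 0.22 (adjusted p = 0.155), Xbp1 -0.63 ± 0.18 (adjusted p = 0.199) and Hspa5 -0.78 ± 0.24 (adjusted p = 0.376). Hspa1b, at -0.16 with an interval of -0.70 to 0.39, and Hsp90aa1, at 0.09 with an interval of -0.38 to 0.57, were not called. Depletion minus repopulation in the diabetic retina called 0 members (3 under an unadjusted p of 0.05, against 10.9% of all genes), where 0.270% of all genes were lower and 0.332% higher by this normal test of the difference. From the authors' deposited values, that difference was -0.02 for Hspa5, with a 95% interval of -0.47 to 0.43, and for Hspb1 it was 1.37 ± 0.44 (adjusted p = 0.114).

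A comparison of repopulated diabetic with repopulated non-diabetic retina avoids ND, PBS and the divide in sample numbers. It is not 1 of the deposited comparisons and was derived as the difference of 2 of them, with the share of the variance due to ND removed, a choice made after the data were seen. In D10 repopulated against ND repopulated, 25 of 41 members were lower and 2 higher at an adjusted p under 0.05, where 2.98% of all genes were lower and 5.86% higher. The lower members were 11 of 18 cytosolic, 2 of 3 mitochondrial, 11 of 16 ER chaperones and Xbp1. Sdf2l1 differed by -1.19 ± 0.22 (adjusted p = 3.25e-06), Hspa5 by -0.88 ± 0.18, Hspa8 by -0.87 ± 0.18, Hspa1b by -0.85 ± 0.21, Hsph1 by -0.83 ± 0.18, Calr by -0.81 ± 0.20, Chordc1 by -0.79 ± 0.14, Creld2 by -0.78 ± 0.15, Xbp1 by -0.74 ± 0.14 and Hsp90aa1 by -0.58 ± 0.16 on the log2 scale of the authors' deposited values. Bag3 was higher by 0.94 ± 0.31 and Hspb8 by 0.58 ± 0.20, while Hspb1 was lower, at -1.96 ± 0.67. With the errors of both tables added as if independent, the count of members called fell from 27 to 12. In this comparison lens markers had a median of -3.07 with 6 of 19 called lower, microglial markers a median of -1.08 with 8 of 15 called lower, and inflammatory genes a median of 5.90 with 11 of 11 called higher. Immediate early genes, whose median against ND was -0.75 in ND repopulated by the authors' deposited table, here had a median of 0.23 with 5 of 18 called higher and 2 lower. The part of these genes in the chaperone values was not tested.

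The 25 lower members of that comparison can be set beside the 23 of D6 against ND: the groups compared have no sample in common. The derivation does use tables against ND, and the implied standard errors are nearly the same in most of them (for Hspa5, 0.17 in 5 of the 6 of the authors' deposited tables), so both may rest on 1 estimate of the spread and the calls are not fully independent. They shared 21 members, 91.3% of the D6 list and 84.0% of the derived one. Over all genes, 1664 were called lower in D6 and 567 in the derived comparison, and the 334 in both were 20.1% and 58.9% of these lists. Canx and Chac1 were called lower in D6 alone, and Dnajb11, Hspb1, Hspe1 and Pdia3 in the derived comparison alone; the differences for these 6 were not tested. The 13 members that fell in D8 depleted against D8 shared 11 with the D6 list, which is 84.6% of the 13 and 47.8% of the 23; over all genes the lists shared 344, 41.3% and 20.7% of them. The D6 list holds 23 of the 41 members, so a large overlap within the members follows in part from its length. The plot of D6 against the derived comparison shows both values for each member.

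**Figure D4:**
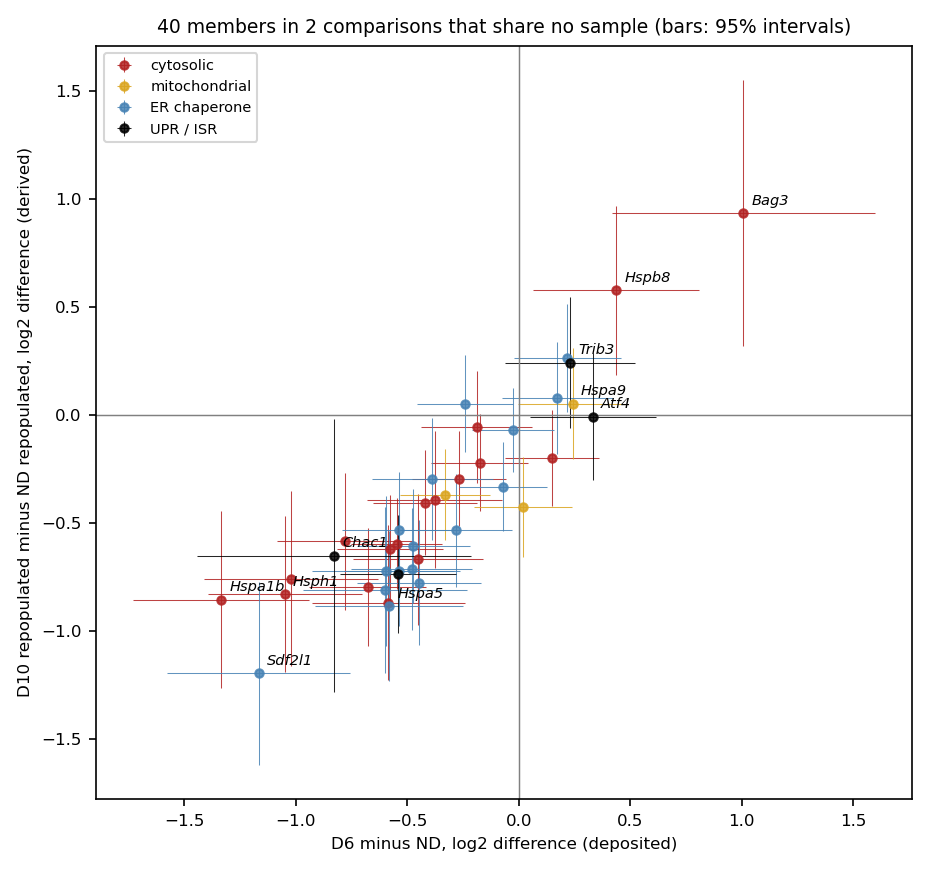
Log2 difference of D6 minus ND (horizontal axis, deposited) and of D10 repopulated minus ND repopulated (vertical axis, derived) for 40 members, coloured by class, with 95% intervals; Hspb1, at 3.55 and -1.96, lies outside and is not drawn. Hspa1b, Sdf2l1 and Hsph1 lie lowest for D6 minus ND, and Sdf2l1, Hspa5 and Hspa8 for the derived comparison. Bag3 and Hspb8 are in the upper right corner.

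Differences between diabetic groups were derived in the same way. In D10 against D6, Sdf2l1 was higher by 0.90 ± 0.22, Hsph1 by 0.73 ± 0.18, Pdia6 by 0.51 ± 0.14, Manf by 0.44 ± 0.13 and Chac1 by 1.20 ± 0.32, and 0 of 41 members were called lower (1 under an unadjusted p of 0.05, against 9.53% of all genes), where 0.789% of all genes were higher and 1.90% lower. The median of ER chaperones in that comparison was 0.33 and that of all genes -0.01. In D8 against D6, Hspa1b was higher by 0.67 ± 0.21 (adjusted p = 0.0442) and Hspb1 lower, at -3.32 ± 0.67 (adjusted p = 0.00052), where 0.594% of all genes were higher and 2.67% lower by the same test on the authors' deposited values. Of the 20 ER and signalling members, 0 were called in D8 against D6, and 5 had an unadjusted p under 0.05, against 17.4% of all genes. The median of these 20 was 0.24 and that of all genes -0.03. Both comparisons with D6 cross PBS and the sample number sets. In D10 repopulated against D8 depleted, which cross neither, Hspa13 was higher by 0.52 ± 0.12 and Dnajc3, the carrier of an ER stress element shown above, by 0.37 ± 0.10, where 6.11% of all genes were higher and 3.91% lower. For the other 39 members this last comparison of the authors' deposited values gave no call, among them Hspa5 at 0.27 (95% interval -0.10 to 0.64) and Bag3 at 0.88 (0.22 to 1.53, adjusted p = 0.0715). With the errors of both tables added as if independent, 0 members were called in each of these 3 comparisons.

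Genes of the same pathways outside the 42 members were counted as well. Of 26 other heat shock genes and cochaperones, 5 fell and 2 rose in D6, 4 and 2 in D8 depleted and 3 and 0 in D10 repopulated, by the authors' deposited tables. The falls were 19.2%, 15.4% and 11.5% of this list, against 9.31%, 13.0% and 4.19% of all genes tested. The rises were 7.69%, 7.69% and 0%, against 14.1%, 15.5% and 7.49%. Its median log2 value in those authors' deposited tables lay between -0.05 and -0.10. St13, an HSP70 cochaperone, fell, with log2 values of -0.57, -0.81 and -0.45, and Dnajb2, a J-protein of neurons, at -0.66, -0.63 and -0.66, whereas Unc45a, an HSP90 cochaperone, rose in D6 (0.59) and D8 depleted (0.47), in the authors' deposited tables. Of 8 subunits of the cytosolic chaperonin, the authors' deposited table for D6 calls Cct4 lower at -0.33 and Cct3 at -0.32. Cct4 was also called lower in D10, D8 depleted and D10 repopulated, and Cct6a in D8 depleted. Of 7 other genes of mitochondrial protein quality control, Dnaja3 was called lower in D6 and D10 repopulated. Lonp1 and Clpp were called higher in D8 depleted, and Lonp1 also in D8 depleted against D8, by the authors' deposited tables. Of 39 other ER genes (sensors, degradation, folding and translocation), 5 fell and 2 rose in D6, 7 and 3 in D8 depleted and 7 and 0 in D10 repopulated, by the authors' deposited tables. These falls were 12.8%, 17.9% and 17.9% of the list and the rises 5.13%, 7.69% and 0%, against the same shares of all genes. Edem1, which sends misfolded glycoproteins to degradation, fell, with log2 values of -0.53, -0.59 and -0.53 in those 3 groups, and the isomerase Pdia5 at -0.59 in D6 and -0.55 in D10 repopulated, in the authors' deposited tables. Of the sensors, Atf6 (-0.53) and Ern1, which encodes IRE1 (-0.40), fell in D8 depleted, and Atf6b in D6 (-0.58), by the authors' deposited tables. Selenos, of the degradation machinery, rose in D6 by 0.67 in the authors' deposited table.

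Of 16 other genes of the integrated stress response, 3 rose and 2 fell in D6, 1 and 1 in D8, 3 and 0 in D10, 2 and 3 in D8 depleted and 3 and 0 in D10 repopulated, by the authors' deposited tables. In D6 that is 18.8% higher and 12.5% lower, near the 14.1% and 9.31% of all genes, and in D8 depleted 12.5% higher and 18.8% lower, near 15.5% and 13.0%. The higher share was 6.25% in D8, against 2.33% of all genes, and 18.8% in both D10 and D10 repopulated, against 5.59% and 7.49%, each from 1 to 3 genes. Slc7a11, the cystine carrier that ATF4 and NRF2 switch on, rose in all 5 diabetic groups, by log2 2.68 in D6, 2.41 in D8, 3.69 in D10, 1.98 in D8 depleted and 3.12 in D10 repopulated in the authors' deposited tables. Asns, the asparagine synthetase, fell in D6 (-0.57) and D8 depleted (-0.60) in the authors' deposited tables. Phgdh was the gene of this list that fell in D8, by the authors' deposited table. Atf3 rose in D10 (0.70) and D10 repopulated (0.88), by the authors' deposited tables. Ppp1r15a, the phosphatase subunit that ends the translation block, rose in D6 by 0.48 in the authors' deposited table.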

How the data were processed

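Stranded poly(A) mRNA libraries from retina were made per the labels' protocols; bcl2fastq and build GRCm39 are named in the submitters' processing notes, and the sources used here name no aligner, counter or test. The 8 deposited tables hold, per the file headers, the larger group mean (a signal whose unit is not stated), a p-value, its false discovery rate adjustment and a log2 fold change, taken as deposited by the authors. The adjusted p equals Benjamini-Hochberg adjustment within 0.000489. The table of D10 against D10 repopulated was turned round. The deposited larger mean does not name its group. For 34 members the ND mean was taken as a value that repeats between tables. Other means were assigned as a value that was not the ND one, or by the sign of the log2 fold change. Standard errors were implied by the deposited log2 and p through the normal quantile. Differences of tables without shared samples used summed variances; 4 derived comparisons used a common ND, its variance share removed by group size. Set beside the 2 deposited direct tables, derived standard errors were 0.959 and 0.948 times the deposited ones in the median, and called 10 members against 13 and 0 against 1. Adjusted p covered all genes. The difference tests were run on simulated data drawn from a normal law with the implied errors and the same variance shares. Such data cannot check the normal law or those shares. Members and lists were chosen with earlier results of these data known. Named with values are Hspa1b, Hsp90aa1, Hspb1, Hspa5 and Xbp1 in each deposited comparison, the 3 called members of smallest p per class and direction, and up to 3 called genes of other lists. Python 3.11.15, pandas 2.3.3 and scipy 1.17.1 were used.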

Additional observations from a re-analysis of the deposited data

Results flagged for a closer look

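Hspb1 was flagged because its repopulation effect differed between diabetic and non-diabetic retina in a test of the difference itself on the authors' deposited values: the diabetic minus the non-diabetic log2 effect was -3.77 (adjusted p = 0.00080). In the authors' deposited tables, Hspb1 was at log2 -0.85 in D10 repopulated against D10 and at 2.92 in ND repopulated against ND. Lens markers had medians of -1.14 and 1.48 in the same authors' deposited tables, and their part in the Hspb1 difference was not tested.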

How the results depend on the processing

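Of 103 called gene and comparison pairs, 3 lost their call on subtracting the median of all genes (Chordc1 in D10, Trib3 in D10 repopulated, and Hyou1 in D8 depleted against D8) and 23 at a threshold of 0.01; a threshold or a filter on levels leaves the deposited log2 value as it is, so these settings say nothing about direction. Leaving out each replicate was not run, since values per library were not analysed here. No paired analysis was possible because the labels give the groups no shared replicate numbers. Asking for a log2 fold change of at least 1 in size left 6 members in D6, 0 in D8, 1 in D10, 0 in D8 depleted and 3 in D10 repopulated against ND, 0 in D8 depleted against D8 and 0 in D10 repopulated against D10. At 0.01, D8 kept a count of 2, D10 of 5, D8 depleted against D8 of 5 and D10 repopulated against D10 of 0. In the last comparison the count was 2 (Pdia6 and Xbp1) both at a threshold of 0.10 and with low levels left out. A t quantile in place of the normal one made the implied errors smaller, while p was still taken from the normal law. In this looser setting the repopulation effect differed for 7 members (Hspb1, Hspa5, Pdia6, Sdf2l1, Creld2, Manf and Xbp1). Depletion then differed from repopulation for 1 (Hspb1). With the normal quantile and a threshold of 0.10, the count for the repopulation effect was 2. Of the derived comparisons, errors added as if independent left 12 members in D10 repopulated against ND repopulated and 0 in D8 against D6, D10 against D6 and D10 repopulated against D8 depleted, and a threshold of 0.10 gave 5, 9 and 5 in the last 3. These derived comparisons and their alternatives were chosen after seeing the data.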
